A study of Mus musculus with 33 samples.

Results

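The sirtuins are a family of 7 genes in the mouse, Sirt1 to Sirt7, and every one was counted in all 33 RNA-seq libraries of sorted bone marrow cells examined here. They were taken by name, with no use of their values. All 7 passed the filter on low expression in each comparison and make up 7 of the 22573 genes tested between cell types. Libraries came from hematopoietic stem cells (HSCs), common lymphoid progenitors (CLPs) and granulocyte-macrophage progenitors (GMPs) of old C57BL/6 mice aged 24 to 29 months. HSCs were sorted as lineage-negative, cKit+, Sca1+ and CD150+ cells lacking CD34 and Flk2. Old untreated controls (O-WT) were compared with old mice that drank nicotinamide riboside (NR) in their water for 4 to 6 weeks (O-NR). In another group, O-NR-RC, NR had been withdrawn for 2 months. Cohort 2 held 4 O-WT and 4 O-NR libraries of each cell type, 24 in all. Cohort 1 held HSCs only, where O-WT had 2 libraries, O-NR 4 and O-NR-RC 3. No young mice were analysed here, so each comparison is among old animals that carry no transgene or deletion named in the labels. Whether each library stands for 1 mouse was not stated, and p-values measure the spread between these libraries, which may be technical. In sorted bulk cells, fewer cells of a type and less RNA per cell cannot be told apart.

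Sirtuins remove acyl groups from lysines, or transfer ADP-ribose, and consume NAD as they do so, which ties their activity to the cell's NAD supply. NR is a vitamin form that cells convert to NAD. The family divides by place in the cell. SIRT1, SIRT6 and SIRT7 act chiefly in the nucleus and nucleolus, SIRT2 chiefly in the cytosol, and SIRT3, SIRT4 and SIRT5 in mitochondria. In blood stem cells, SIRT1, SIRT3 and SIRT7 are known for roles in stress resistance, mitochondrial quality and maintenance with age. Transcript levels, as measured here, do not report enzyme activity.

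On the mm10 mouse assembly, the Gencode annotation used here places the nuclear members at chr10:63319005-63381704 (Sirt1, minus strand), chr10:81621785-81627797 (Sirt6, minus strand) and chr11:120618372-120625240 (Sirt7, minus strand). Sirt2 lies at chr7:28766735-28788661 on the plus strand. The mitochondrial members lie at chr7:140863666-140882309 (Sirt3, minus strand), chr5:115478010-115484725 (Sirt4, minus strand) and chr13:43365496-43395203 (Sirt5, plus strand). All are protein-coding, and each value below is a count over a gene's exons. The authors' strand setting was not stated in the sources used here. This touches Sirt3 most, because 12.7% of its exon bases lie opposite exons of Psmd13 and Ric8a. Sirt7 shares 3.46% of its exon bases with Mafg and Mir6936 on the same strand, and Sirt2 and Nfkbib overlap by 42 bases.

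Sequence just before the RefSeq start is shown for 3 sirtuins. They were chosen because Sirt1 and Sirt2 were among the closest pairs across cohort 2 libraries, whereas Sirt5 followed the other members least. The closest pair, Sirt3 with Sirt4, is not shown. All 250 bases before each Sirt3 start lay in exons, and the longest stretch outside exons before the Sirt4 start held 34 bases. The stretches hold no annotated exon and read 5′ to 3′ on the gene's strand (GRCm38.p6). Capitals mark the GC box GGGCGG and the letters CCAAT on either strand, and overlapping matches were each counted. They come from chr10:63339051-63339285 (Sirt1, 235 bases), chr7:28766641-28766734 (Sirt2, 94 bases) and chr13:43365285-43365495 (Sirt5, 211 bases). For Sirt1, the RefSeq start lies inside the Gencode span given above, not at its end.
Sirt1: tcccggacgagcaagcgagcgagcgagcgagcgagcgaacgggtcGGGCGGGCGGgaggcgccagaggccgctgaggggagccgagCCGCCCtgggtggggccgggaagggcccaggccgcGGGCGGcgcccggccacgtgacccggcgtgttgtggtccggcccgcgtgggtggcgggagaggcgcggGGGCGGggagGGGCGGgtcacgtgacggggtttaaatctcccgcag
Sirt2: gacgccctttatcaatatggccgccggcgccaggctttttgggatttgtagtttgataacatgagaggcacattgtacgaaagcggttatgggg
Sirt5: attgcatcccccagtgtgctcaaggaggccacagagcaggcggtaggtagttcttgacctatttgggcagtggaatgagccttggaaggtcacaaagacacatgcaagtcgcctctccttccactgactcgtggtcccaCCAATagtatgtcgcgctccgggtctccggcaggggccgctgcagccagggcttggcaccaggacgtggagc
The Sirt1 stretch held 36 CpG pairs, 6 GC boxes and 2 copies of CACGTG, an E-box. In Sirt2, neither a GC box nor CCAAT was in the 94 bases, a shorter stretch than the others. The whole 250 bases before the Sirt2 start, which reach into Nfkbib, held 2 CCAAT and 1 GC box. The Sirt5 stretch held 1 CCAAT and 9 CpG pairs, and its whole 250 bases also held 1 GC box. Among 32851 RefSeq windows of 250 bases before a start, 32.7% held a GC box, 33.8% CCAAT and 6.02% CACGTG, with a median of 6 CpG pairs. These matches describe letters only, and factor binding was not measured.

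Libraries held between 4792380 counted reads (CLP O-WT replicate 3) and 23816042. The lowest sirtuin count in any library was 40 reads (Sirt6, in a CLP O-WT library), and the highest was 1468 reads (Sirt3, in an O-NR-RC library). Defining markers followed the labelled cell types of cohort 2. Mecom, an HSC marker, had group means of 278 and 292 CPM (counts scaled to library size) in O-WT and O-NR HSCs, against 10.8 to 23.7 CPM in the CLP and GMP groups. CLP markers such as Dntt and GMP markers such as Mpo were likewise highest in their own libraries. One label field calls the GMP samples by another myeloid progenitor name, and the titles were followed. Markers of other cells were present. Summed plasma and B cell markers were 33.1 to 729 CPM in O-WT HSCs of cohort 2, and 5.41 to 117 in O-NR HSCs. In cohort 1 they were 16.1 to 18.3 CPM in O-WT, 13.6 to 31.3 in O-NR and 37.0 to 258 in O-NR-RC. Summed neutrophil markers were 39.0 to 166 CPM in O-WT CLPs and 9.93 to 130 in O-NR CLPs. The part of such cells in the sirtuin values was not tested. Reads from 1736 olfactory and vomeronasal receptor genes, which blood cells are not known to use, varied among libraries and reached 13739 to 14712 CPM in 4 of the 9 cohort 1 libraries. In cohort 2 they were highest in CLPs, with medians of 3550 CPM in O-WT and 3597 in O-NR, against 2681 and 2112 in HSCs and 1309 and 1549 in GMPs, so they differed with cell type as well.

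Levels are given as CPM scaled by the trimmed mean of M-values (TMM), over all 24 libraries of cohort 2, and per kilobase of exon where genes are compared with each other. In O-WT HSCs, Sirt3 had the highest level per length, 9.88 ± 3.40 CPM per kb (SD, n = 4). It was followed by Sirt1 (6.59 ± 0.734), Sirt2 (6.26 ± 1.83), Sirt7 (5.28 ± 0.819), Sirt4 (3.76 ± 1.05), Sirt6 (3.03 ± 0.574) and Sirt5 (2.73 ± 0.681). Each mean lay within the summed SDs of its neighbour in that order, although Sirt3 exceeded Sirt1, Sirt7 exceeded Sirt4 and Sirt4 exceeded Sirt6 in each of the 4 libraries. Sirt3 was also highest per length in O-WT CLPs, at 7.75 ± 2.10 CPM per kb. In O-WT GMPs the order began instead with Sirt7, at 8.56 ± 0.947 CPM per kb, ahead of Sirt3 (6.90 ± 1.28) and Sirt1 (6.83 ± 1.29). Sirt5 was lowest per length in all 3 cell types, with 1.87 ± 0.407 CPM per kb in GMPs. The order depended on the length used. When levels were divided by the longest transcript in place of all exon bases, Sirt1 moved from rank 2 to rank 4 and Sirt2 from rank 3 to rank 2 in O-WT HSCs. Sirt5 moved from rank 7 to rank 5 in O-WT HSCs and to rank 3 in O-WT CLPs.

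**Figure D1:**
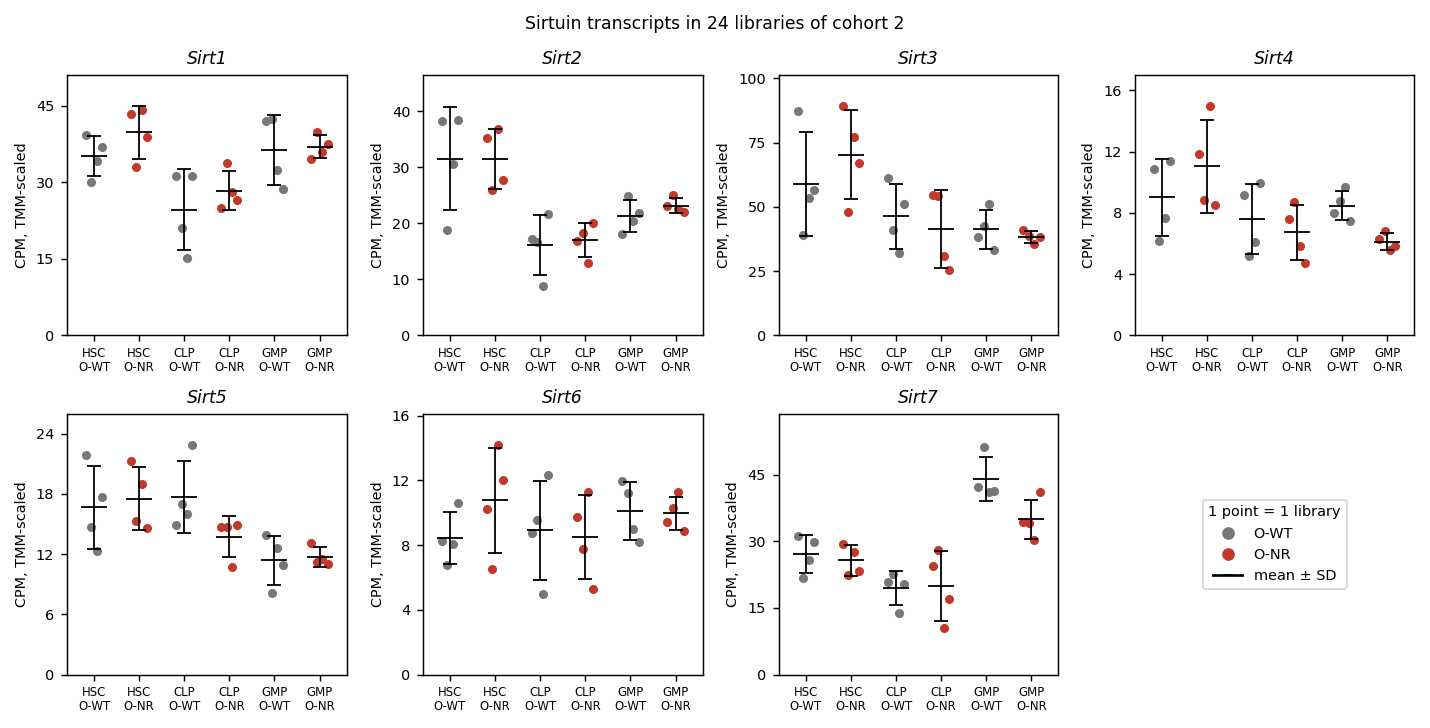
Level of each sirtuin (TMM-scaled CPM, vertical axis) in each cohort 2 library, by cell type and treatment; points are libraries and bars are means with SD (n = 4 per group). Sirt7 is highest in GMPs, 41.2 to 51.4 CPM in O-WT, and Sirt2 is highest in HSCs, with means over 8 libraries of 31.5 CPM, against 16.5 in CLPs and 22.2 in GMPs.

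The first question the design allows is how the family differs among the stem cell and the lymphoid and myeloid progenitors. In O-WT cells, Sirt7 was higher in GMPs than in both other cell types, and Sirt2 was lower in CLPs and in GMPs than in HSCs. Sirt5 was lower in GMPs than in the other cell types, and Sirt1 was higher in GMPs than in CLPs. Genes were called here at an adjusted p below 0.05 from edgeR's quasi-likelihood test over all genes. By that rule, 1 of 7 sirtuins was called for CLPs against HSCs, where 26.0% of all genes were called. For GMPs against HSCs, 3 of 7 were called against 38.5% of all genes. For GMPs against CLPs the count was 3 of 7, against 56.2% of all genes. The directions changed with the scaling. For GMPs against HSCs, 1 sirtuin was higher and 2 lower, but with DESeq2 or with no filter Sirt7 was the single call, and with receptor-gene reads as a covariate 0 were higher and 3 lower (Sirt2, Sirt3 and Sirt5). For GMPs against CLPs, 2 were higher and 1 lower, but 3 higher and 0 lower with DESeq2 or no filter, where Sirt2 took the place of Sirt5, and 1 higher and 2 lower with upper quartile scaling, where Sirt3 took the place of Sirt1. The family was called no more often than the background share in the first and last of these comparisons. Its median log2 difference was -0.35 for CLPs against HSCs (all genes 0.11), -0.09 for GMPs against HSCs (all genes -0.32) and 0.17 for GMPs against CLPs (all genes -0.42).

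Among the nuclear members, Sirt7, a nucleolar deacetylase tied to ribosomal RNA genes and to mitochondrial stress responses, had the largest difference. Its levels were 42.4, 51.4, 41.2 and 41.4 CPM in the 4 O-WT GMP libraries. In O-WT HSCs they were 31.2, 21.9, 25.8 and 29.8 CPM, and in O-WT CLPs 20.96, 22.6, 13.96 and 20.3 CPM. Every GMP library was above every HSC and CLP library. The log2 difference was 1.18 ± 0.21 (SE) between GMPs and CLPs, a 2.26-fold higher level in GMPs (95% interval 0.75 to 1.61, adjusted p = 1.30e-05). Between GMPs and HSCs it was 0.70 ± 0.21 (adjusted p = 0.00573). Both calls were kept when any single library was left out, although the GMP to CLP difference was 1.03 without CLP O-WT replicate 3, the shallowest library. It was smallest, 0.58, and still called with receptor-gene reads as a covariate (adjusted p = 0.0311). With that covariate, the GMP to HSC difference was 0.34 and no longer called (adjusted p = 0.107). Mafg, which shares exon bases with Sirt7, was itself 1.67 ± 0.23 higher on the log2 scale in O-WT GMPs than in CLPs (adjusted p = 3.32e-08). Its part in the Sirt7 difference was not tested.

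Sirt1, the best known family member and a deacetylase of p53 and FOXO factors, was lowest in CLPs. O-WT CLPs held 31.2, 21.1, 15.1 and 31.2 CPM of Sirt1, and O-WT GMPs 42.1, 42.4, 32.5 and 28.7 CPM. The GMP to CLP difference was 0.56 ± 0.20 on the log2 scale (adjusted p = 0.0170), with an overlap between the groups in 1 GMP library. It was not called without CLP O-WT replicate 2 (0.48) or replicate 3 (0.37). Upper quartile scaling gave 0.13 and the receptor-gene covariate 0.01, neither called. HSCs of O-WT mice held 39.3, 30.1, 34.2 and 36.8 CPM, and the CLP to HSC difference of -0.51 ± 0.20 missed the threshold (adjusted p = 0.0539). With the treatment and replicate number as a block it was -0.54 and passed (adjusted p = 0.0439), so that 2 of 7 sirtuins were called in place of 1. That call was also made without HSC O-WT replicate 2 (-0.49) or CLP O-WT replicate 1 (-0.63) or 4 (-0.64). With library sizes recomputed after the filter, or with O-WT libraries alone, 3 of 7 were called, Sirt1, Sirt2 and Sirt7. Sirt6, a chromatin deacetylase that protects telomeres and represses glycolytic genes, differed least among cell types. Over 8 libraries each, HSCs averaged 9.60 ± 2.67 CPM (SD), CLPs 8.71 ± 2.63 and GMPs 10.0 ± 1.36, and it was called in none of the 6 cell-type comparisons.

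The cytosolic Sirt2, known as a tubulin deacetylase, was highest in HSCs. Its O-WT levels were 38.3, 18.9, 30.5 and 38.5 CPM in HSCs, 17.3, 16.6, 8.73 and 21.6 in CLPs, and 18.1, 24.9, 20.4 and 21.9 in GMPs. HSC O-WT replicate 2 stood below the other HSC libraries and inside the CLP and GMP ranges. The CLP to HSC difference was -0.97 ± 0.22 on the log2 scale (95% interval -1.41 to -0.53, adjusted p = 0.000419). This call was kept under every alternative and with each library left out, between -0.71 and -1.01 across the processing alternatives. The GMP to HSC difference was smaller, -0.56 ± 0.22 (adjusted p = 0.0334). It was not called without HSC O-WT replicate 1 (-0.46) or 4 (-0.45), without GMP O-WT replicate 1 (-0.42), 3 (-0.46) or 4 (-0.45), with DESeq2 (-0.33) or with no expression filter (-0.36). Between GMPs and CLPs, Sirt2 differed by 0.40 (adjusted p = 0.106) and was called without CLP O-WT replicate 4 (0.64) or GMP O-WT replicate 1 (0.57) or 3 (0.53).

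Of the mitochondrial members, Sirt5, which removes succinyl and malonyl groups, was low in GMPs. O-WT GMPs held 13.9, 8.14, 12.6 and 10.9 CPM, O-WT CLPs 14.9, 17.0, 16.0 and 22.9, and O-WT HSCs 21.9, 14.7, 12.3 and 17.7. The GMP and CLP libraries did not overlap, with a log2 difference of -0.64 ± 0.22 (adjusted p = 0.0118), and the GMP to HSC difference was -0.55 ± 0.21 (adjusted p = 0.0366). The GMP to CLP call was lost without GMP O-WT replicate 2 (-0.46), with DESeq2 (-0.43) and with no filter (-0.41). Against HSCs it was lost without HSC O-WT replicate 1 (-0.39), 2 (-0.50) or 4 (-0.52), without GMP O-WT replicate 2 (-0.38) or 4 (-0.43), with DESeq2 (-0.34) and with no filter (-0.37). Sirt3, the main mitochondrial deacetylase, reached 38.9 to 87.1 CPM in O-WT HSCs and 33.2 to 51.2 CPM in O-WT GMPs. Its GMP to HSC difference in O-WT was -0.52 (adjusted p = 0.0690) and was called without HSC O-WT replicate 2 (-0.56) or GMP O-WT replicate 3 (-0.55). It was also called with upper quartile scaling (-0.70), library sizes recomputed after the filter (-0.54), the receptor-gene covariate (-1.01) and O-WT libraries alone (-0.50). Sirt4, known to restrain glutamate dehydrogenase, lay between 5.17 and 11.4 CPM over the O-WT libraries, with no call in any O-WT comparison.

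The same 3 comparisons within O-NR mice gave other calls. For CLPs against HSCs, 3 of 7 sirtuins were called (all genes 30.2%), all lower in CLPs. For GMPs against HSCs, 3 of 7 were called (all genes 33.7%), all lower in GMPs. For GMPs against CLPs, 1 of 7 was called (all genes 37.1%), higher in GMPs. With upper quartile scaling this became 1 higher and 2 lower, with Sirt3 and Sirt5 added, and for GMPs against HSCs DESeq2 gave 1 higher and 2 lower. The family median log2 difference was -0.49, -0.44 and 0.23, against 0.09, -0.19 and -0.29 for all genes. Whether cell-type differences themselves changed with NR was tested as an interaction, given further on, and no sirtuin was called.

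Sirt3 in O-NR libraries measured 89.1, 48.0, 77.0 and 67.2 CPM in HSCs, 54.8, 54.2, 31.0 and 25.5 in CLPs, and 41.0, 38.5, 35.5 and 38.3 in GMPs. All 4 GMP libraries were below all 4 HSC libraries. Its log2 difference was -0.88 ± 0.23 for GMPs against HSCs (adjusted p = 0.00176), kept under every alternative, and -0.76 ± 0.23 for CLPs against HSCs (adjusted p = 0.00851). Without HSC O-NR replicate 1 the latter was -0.63 and not called (adjusted p = 0.0544). Psmd13, opposite Sirt3 on the other strand, went the other way and was higher by 1.54 ± 0.21 on the log2 scale in O-NR GMPs than in HSCs, whereas Ric8a was lower by 0.83 ± 0.22 in the same comparison (log2 difference -0.83). Sirt4 held 11.8, 8.82, 15.0 and 8.50 CPM in O-NR HSCs, 7.61, 8.71, 5.83 and 4.73 in CLPs, and 6.28, 6.78, 5.54 and 5.81 in GMPs. The GMP and HSC libraries did not overlap, and the log2 difference was -0.85 ± 0.26 (adjusted p = 0.00701). It was -0.67 and not called without HSC O-NR replicate 3 (adjusted p = 0.0558), and it was not called with no filter. For CLPs against HSCs, Sirt4 differed by -0.71 ± 0.26 (adjusted p = 0.0322). That call was lost without HSC O-NR replicate 1 (-0.68) or 3 (-0.53), without CLP O-NR replicate 4 (-0.62), and with upper quartile scaling, no filter or the receptor-gene covariate.

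Sirt5 was lower in O-NR GMPs than in O-NR HSCs by a log2 difference of -0.58 ± 0.22 (adjusted p = 0.0298). The GMP libraries (13.1, 11.2, 11.5 and 11.03 CPM) lay below all HSC libraries (21.3, 15.3, 19.0 and 14.6 CPM). The call was lost with DESeq2, with no filter, and without HSC O-NR replicate 1 (-0.48) or 3 (-0.54) or GMP O-NR replicate 2 (-0.47), 3 (-0.47) or 4 (-0.46). Sirt2 kept its low level in CLPs, with 16.8, 18.2, 12.9 and 20.1 CPM in O-NR CLPs and 35.3, 26.0, 36.8 and 27.7 in O-NR HSCs. These groups did not overlap, and the difference was -0.88 ± 0.22 (adjusted p = 0.00119), called under every alternative and without any single library. For GMPs against HSCs in O-NR mice, Sirt2 differed by -0.44 with no overlap between groups, and missed the threshold (adjusted p = 0.117). It was called with upper quartile scaling (-0.52), recomputed library sizes (-0.49), the receptor-gene covariate (-0.63) and O-NR libraries alone (-0.39). Sirt7 was again higher in GMPs (34.3, 34.2, 30.3 and 41.1 CPM) than in CLPs (24.5, 28.2, 10.4 and 17.0 CPM). Its log2 difference was 0.80 ± 0.21 (adjusted p = 0.00298), kept without any single library, but 0.43 and not called with the receptor-gene covariate (adjusted p = 0.0650). For GMPs against HSCs in O-NR mice Sirt7 differed by 0.44 with no overlap between groups, and missed the threshold (adjusted p = 0.105). It was called without GMP O-NR replicate 1 (0.54), 2 (0.55) or 3 (0.61), and with DESeq2 (0.60) or O-NR libraries alone. Sirt1 in O-NR mice differed by -0.49 on the log2 scale between CLPs and HSCs and missed the threshold (adjusted p = 0.0564). It was called without HSC O-NR replicate 2 or without any 1 of the 4 CLP O-NR libraries (-0.47 to -0.59). Library sizes recomputed after the filter (-0.53) or O-NR libraries alone also gave that call. For GMPs against CLPs in O-NR mice, Sirt1 (0.38) and Sirt2 (0.44) had groups that did not overlap and missed the threshold (adjusted p = 0.119 and 0.103). Sirt1 was called without any 1 of the 4 CLP libraries or GMP O-NR replicate 1, 2 or 4 (0.46 to 0.58), and Sirt2 without CLP O-NR replicate 1, 2 or 4 or GMP O-NR replicate 1 or 4 (0.56 to 0.67). Both were also called with O-NR libraries alone.

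**Figure D2:**
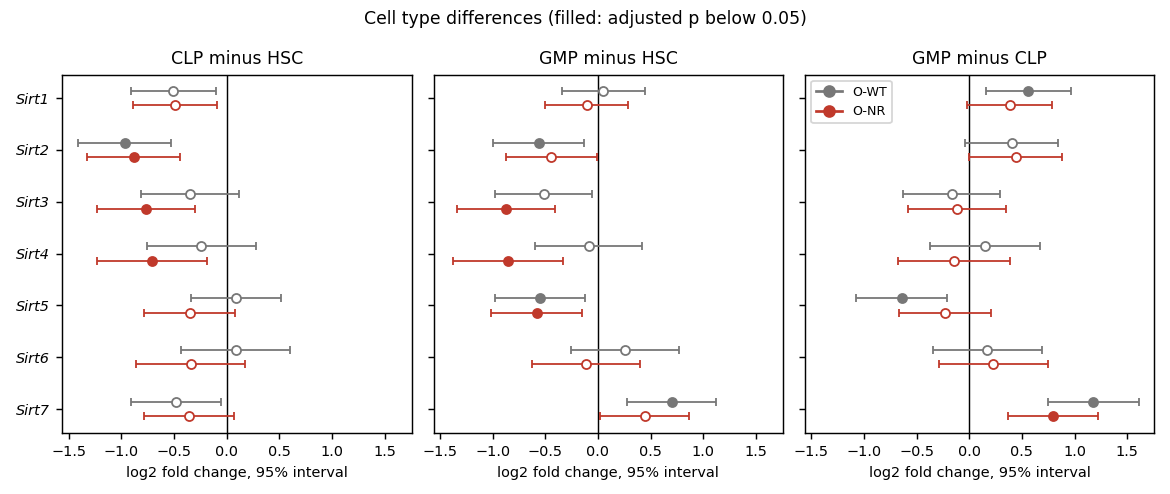
Log2 differences of the 7 sirtuins between cell types in O-WT and O-NR libraries of cohort 2, with 95% intervals from the edgeR fit; filled points were called at an adjusted p below 0.05 and open points were not. Sirt7 lies above 0 in both comparisons with GMPs as the first group, and Sirt2 lies below 0 for CLPs against HSCs, at -0.97 in O-WT and -0.88 in O-NR.

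The second question was whether NR changed sirtuin transcripts within a cell type. Calls here used an unadjusted p below 0.01 from edgeR, a cutoff that the study also used. The methods of the study list a fold change limit as well, which was not applied here. No gene passed an adjusted p of 0.05 in HSCs, CLPs or GMPs. At an unadjusted p below 0.05 there were 705, 640 and 651 genes in the 3 cell types. In HSCs of cohort 2, none of 7 sirtuins was called, where 0.777% of all genes were, and the differences ran from -0.16 (Sirt7) to 0.25 (Sirt6) on the log2 scale. In CLPs none of 7 was called (all genes 0.412%). In GMPs 1 of 7 was called (all genes 0.986%). No sirtuin had an unadjusted p below 0.05 in HSCs or CLPs, 2 did in GMPs, and DESeq2 gave 0, 0 and 1 calls. Medians over the family were 0.10, -0.13 and -0.02 in HSCs, CLPs and GMPs, and those over all genes were -0.007, -0.005 and -0.002.

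The gene called in GMPs was Sirt7. It fell from 42.4, 51.4, 41.2 and 41.4 CPM in O-WT (44.1 ± 4.88, SD) to 34.3, 34.2, 30.3 and 41.1 CPM in O-NR (34.9 ± 4.47). The highest O-NR library was just under the lowest O-WT library. The log2 difference was -0.34 ± 0.097 (SE, 95% interval -0.55 to -0.14), a 0.79-fold level, short of the study's fold change limit. Its unadjusted p from edgeR was 0.00309, its adjusted p was 0.905, and an exact two-sided permutation test of the 8 levels gave p = 0.0286, the smallest that 4 against 4 libraries allow. It was not called without GMP O-WT replicate 2 (-0.28) or without GMP O-NR replicate 1 (-0.33), 2 (-0.33) or 3 (-0.30), nor in 1 fit over all 24 libraries (-0.34). Over all alternatives its adjusted p lay between 0.130 and 1.00. Sirt4 in GMPs also had groups that did not overlap, 7.98, 8.77, 9.69 and 7.46 CPM in O-WT and 6.28, 6.78, 5.54 and 5.81 CPM in O-NR. Its difference of -0.48 ± 0.18 missed the threshold (edgeR unadjusted p = 0.0186, adjusted p = 0.997). In CLPs the groups of Sirt5 did not overlap, with 14.9, 17.0, 16.0 and 22.9 CPM in O-WT against 14.7, 14.7, 10.7 and 14.8 CPM in O-NR. That difference was -0.45 ± 0.22 (edgeR unadjusted p = 0.0548, adjusted p = 1.00). Both exact permutation tests gave p = 0.0286, as any 2 groups of 4 that do not overlap must. For every other sirtuin and cell type the exact permutation p was 0.229 or more. The share of all genes whose groups do not overlap was not computed, here or between cell types. Separation of groups is therefore a description of these libraries only.

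The difference of the NR effect between cell types was tested directly as an interaction over the 24 libraries. None of 7 sirtuins was called for CLPs against HSCs (all genes 0.403%), for GMPs against HSCs (all genes 0.146%) or for GMPs against CLPs (all genes 0.403%). DESeq2 also called 0, and 1 sirtuin had an unadjusted p below 0.05. This was Sirt4, whose NR effect in GMPs minus that in HSCs was -0.76 ± 0.36 (edgeR unadjusted p = 0.0404, adjusted p = 1.00). It was -0.58 without HSC O-NR replicate 3 and -0.63 without HSC O-WT replicate 2. For Sirt7 the GMP effect minus the CLP effect was -0.38 ± 0.30 (95% interval -0.98 to 0.22), so the fall in GMPs was not shown to differ from CLPs.

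**Figure D3:**
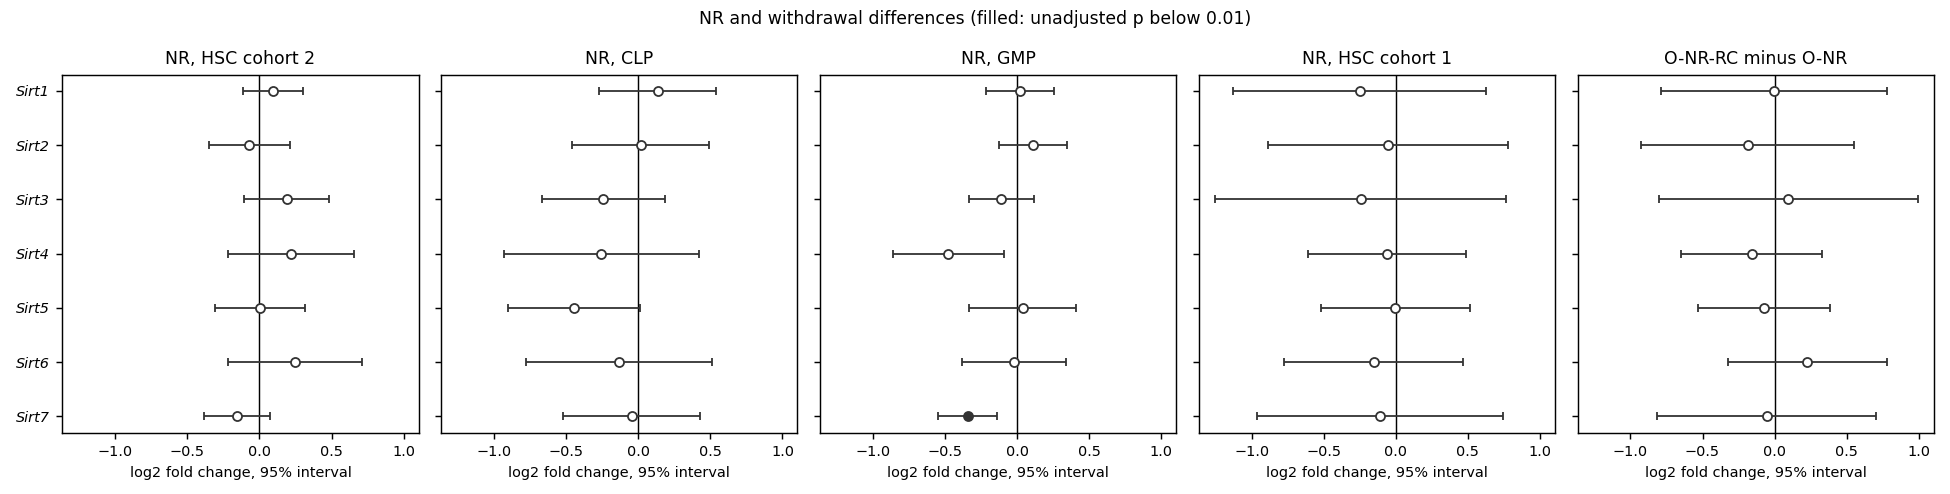
Log2 differences of the 7 sirtuins between O-NR and O-WT in HSCs, CLPs and GMPs of cohort 2 and HSCs of cohort 1, and between O-NR-RC and O-NR, with 95% intervals; filled points had an unadjusted p below 0.01. The filled point is Sirt7 in GMPs at -0.34, and the widest intervals are those of Sirt3 in cohort 1.

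The third question concerned HSCs of cohort 1, with NR given and then withdrawn. None of 7 sirtuins was called for O-NR against O-WT (all genes 0.0480%), for O-NR-RC against O-NR (all genes 0.0360%) or for O-NR-RC against O-WT (all genes 0.0780%). Nor did any have an unadjusted p below 0.05 in these 3 edgeR comparisons, and DESeq2 called 0. Differences ran from -0.25 to -0.0034 for NR, from -0.19 to 0.23 for withdrawal and from -0.26 to 0.07 for O-NR-RC against O-WT, on the log2 scale. Without O-NR-RC replicate 1 the lowest became -0.59 for withdrawal and -0.80 for O-NR-RC against O-WT, where Sirt3 was at -0.79. The family medians were -0.11, -0.05 and -0.16, against -0.007, 0.02 and 0.01 for all genes. The intervals were wide. For Sirt1, O-NR against O-WT gave -0.25 ± 0.41 (SE), an interval that reached down to -1.13. Changes of that size were not excluded by these libraries.

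In O-NR and O-NR-RC of cohort 1, the spread within groups was larger for 6 of the 7 genes than for Sirt5. For those 6, the SD was 15.3% (Sirt4) to 40.6% (Sirt2) of the mean in O-NR. In O-NR-RC it was 29.4% (Sirt4) to 62.0% (Sirt3). In O-WT, over all 7, it was 3.45% (Sirt7) to 18.5% (Sirt1). In cohort 1, Sirt3, for example, measured 66.2 and 52.7 CPM in O-WT, 32.5, 35.6, 62.9 and 69.7 CPM in O-NR, and 91.8, 33.8 and 35.0 CPM in O-NR-RC (scaled within cohort 1, apart from cohort 2). Sirt7 was at 31.1 and 29.6 CPM in O-WT, 19.5, 20.6, 38.8 and 33.6 CPM in O-NR and 43.8, 18.8 and 18.6 CPM in O-NR-RC. The low values belonged to the same 4 libraries, O-NR replicates 1 and 2 and O-NR-RC replicates 2 and 3. Sirt5 alone was even, with 25.9 and 30.2 CPM in O-WT, 27.6, 27.7, 28.4 and 28.4 in O-NR, and 25.2, 29.8 and 24.8 in O-NR-RC.

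Those 4 libraries also had 13739 to 14712 CPM of receptor-gene reads, against 4281 to 8731 in the other 5, and summed sirtuin levels of 148 to 153 CPM against 212 to 294. Their TMM factors were 1.23 to 1.32, against 0.67 to 0.97. The low levels were not particular to the sirtuins. Summed HSC markers were 595 to 686 CPM in these 4 libraries, against 1107 to 1733 in the other 5. Summed GMP markers were 74.7 to 82.8 CPM against 109 to 161. Summed CLP markers went the other way, at 71.3 to 79.5 CPM against 54.7 to 77.2. Most of the GMP sum was Prtn3, with cohort 1 group means of 70.7 to 81.0 CPM. Group means of Mpo, Elane, Ctsg and Ms4a3 were 1.14 to 16.2 CPM, and none was lower in O-NR-RC than in O-WT. With the 4 libraries left out, 5 remained, of which 1 was O-NR-RC, and 1 of 7 sirtuins was called for O-NR-RC against O-WT, where 3117 of 28275 genes were. This was Sirt3, at 0.52 (adjusted p = 0.0807) in place of -0.15, and it rested on the single O-NR-RC library, taken to vary like the others. With receptor-gene reads as a covariate, Sirt3 was at 0.0033 and no sirtuin was called. In cohort 2, CLP O-WT replicate 3 had the most receptor-gene reads (8004 CPM), and HSC O-WT replicate 2 the most among HSCs (4494 CPM). Each was low for most sirtuins, with summed levels of 97.0 and 137 CPM. The part of these reads in the sirtuin values was not tested beyond these fits.

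**Figure D4:**
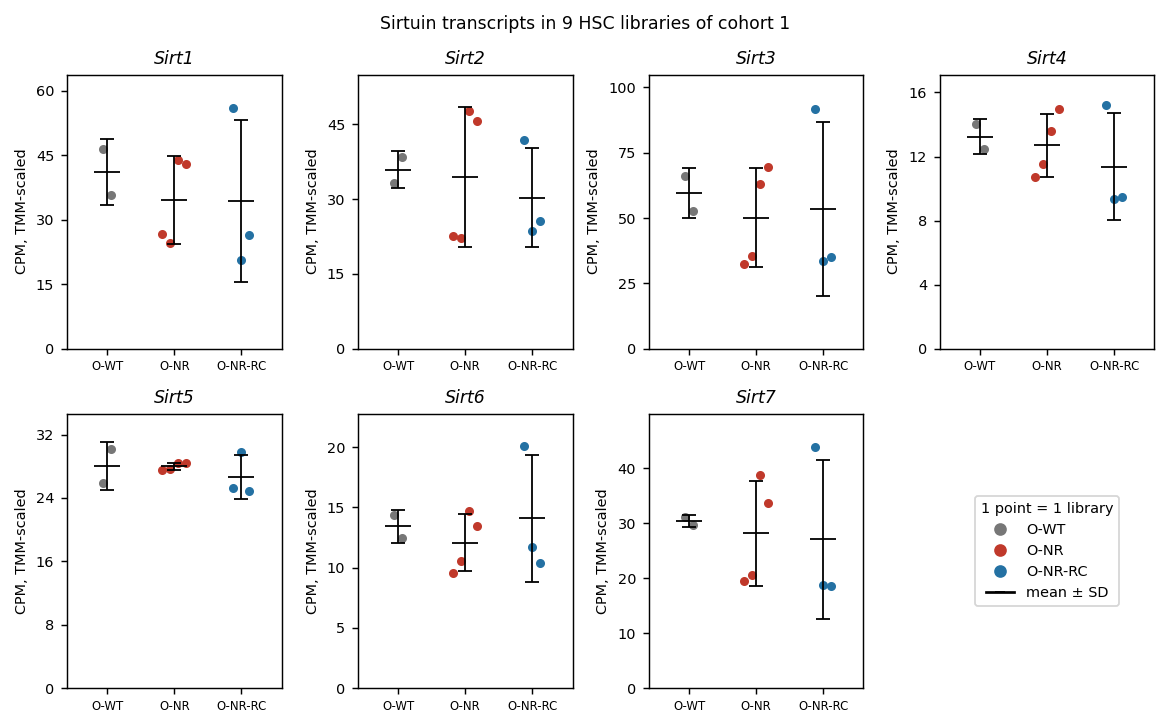
Level of each sirtuin (CPM, TMM-scaled within cohort 1, vertical axis) in HSCs, with 2 libraries for O-WT, 4 for O-NR and 3 for O-NR-RC; points are libraries and bars are means with SD. In O-NR and O-NR-RC, 6 of the 7 genes divide into higher and lower libraries, and Sirt5 stays between 24.8 and 30.2 CPM in all 9.

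**Figure D5:**
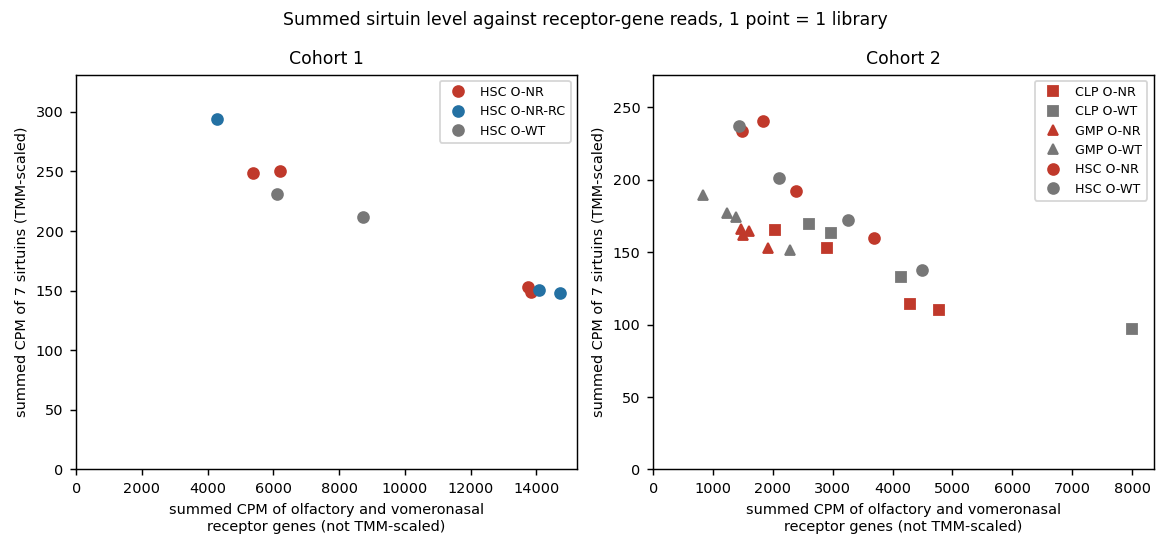
Summed level of the 7 sirtuins (TMM-scaled CPM, vertical axis) against receptor-gene reads (CPM, horizontal axis). Cohort 1 (9 libraries) is on the left and cohort 2 (24 libraries) on the right. Colour shows treatment and marker shape shows cell type. In cohort 1, the 4 libraries above 13739 CPM of receptor-gene reads lie between 148 and 153 CPM of sirtuin transcripts, below the other 5.

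When HSCs of both cohorts were fitted together, with cohort as a term (6 O-WT and 8 O-NR libraries), none of 7 sirtuins was called for NR (all genes 0.103%). Differences lay between -0.11 (Sirt7) and 0.13 (Sirt4), with a family median of 0.04 (all genes -0.02). The intervals were narrower here. For Sirt5 the difference was 0.04 ± 0.11 (SE), and for Sirt1 it was -0.02 ± 0.12. The NR effect in cohort 1 minus that in cohort 2 was called for none of 7 (all genes 0.137%), with values from -0.41 (Sirt3) to 0.07 (Sirt7). In both tests 0 sirtuins had an unadjusted p below 0.05 in edgeR, and DESeq2 called 0.

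The members varied together to different degrees across libraries. Over the 24 libraries of cohort 2, the closest pairs by Pearson's r of log2 CPM were Sirt3 with Sirt4 (0.84) and Sirt1 with Sirt2 (0.78). Sirt5 followed the others least, with r from -0.30 to 0.58. In the 9 libraries of cohort 1, Sirt5 again stood apart (r from -0.31 to 0.06), whereas the other 6 genes had r of 0.76 to 0.97 with each other. These values describe libraries that share scaling and, within cohort 1, the split in receptor-gene reads. Among 22572 other genes over the 24 libraries, the genes most like Sirt1 were Usp9x (0.94) and Ube3b (0.93), and those most like Sirt2 were Vasp and Vcl (both 0.93). Ngdn and Preb were most like Sirt7 (both 0.95), Trappc9 (0.91) and Smox (0.90) most like Sirt3, and Smg6 (0.88) and Sh3glb2 (0.87) most like Sirt4. The nearest genes to Sirt5, Entpd1 and Ttc39a (both 0.84), and to Sirt6, Cipc (0.80) and Zfp942 (0.79), were less close.

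The genes around the family, those that make NAD, those that also consume it and those that regulate or receive sirtuin activity, also differed between cell types. The 5 lists were composed by known function. Not 1 gene in them was called by edgeR or DESeq2 for NR, its withdrawal or the interactions. At most 2 had an unadjusted p below 0.05 in any of these comparisons. Calls did appear in cohort 1 when the 4 libraries high in receptor-gene reads were left out, up to 6 of the 18 substrate genes for O-NR-RC against O-WT, a fit that called 3117 of 28275 genes. Of all 22573 genes, 2117 were called higher and 3760 lower in O-WT CLPs than in HSCs. For O-WT GMPs the counts were 4189 and 4508 against HSCs, and 5433 and 7256 against CLPs. These all-gene counts apply to each list below. Of 11 tested genes of NAD synthesis, none was higher and 4 were lower in O-WT CLPs than in HSCs, with a median of -0.34. The largest falls were in Nadk2, the mitochondrial NAD kinase (94.3 to 21.7 CPM, log2 difference -2.12 ± 0.21), and Naprt, which uses nicotinic acid (12.8 to 3.37 CPM, -1.94 ± 0.33). In O-WT GMPs against HSCs, 2 were higher and 3 lower (median -0.33). Nadk, the cytosolic NAD kinase (1.01 ± 0.21), and Nampt, the rate-limiting enzyme of NAD salvage (0.49 ± 0.20, adjusted p = 0.0463), were higher. Nmrk1, a kinase that phosphorylates NR itself, was lower in GMPs, at 5.48 CPM against 10.9 in HSCs (-0.99 ± 0.25). Against CLPs, 4 were higher and 3 lower in GMPs (median 0.32). Within O-NR mice the counts were 0 higher and 4 lower, 2 and 4, and 4 and 1 in the same order of comparisons. Over all genes they were 2817 and 4004, 3540 and 4067, and 3889 and 4490.

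Among 8 other NAD consumers, 2 were higher and 2 lower in O-WT CLPs than in HSCs, 2 and 1 in GMPs against HSCs, and 2 and 3 in GMPs against CLPs. Cd38, an NAD glycohydrolase at the cell surface, was highest in HSCs at 19.3 CPM, with 4.96 in CLPs and 2.29 in GMPs. It fell by 1.95 and by 3.07 on the log2 scale. Parp1, which uses NAD in DNA repair, was higher in CLPs (383 CPM) and in GMPs (303 CPM) than in HSCs (113 CPM). Bst1, a relative of Cd38, was higher in CLPs than in HSCs by 2.24 ± 0.31. For 5 tested regulators of sirtuins, 1 was higher and 1 lower in CLPs against HSCs, and 3 were higher and 1 lower in each GMP comparison. E2f1, a cell cycle factor, was higher in GMPs than in HSCs (34.8 against 8.29 CPM, 2.06 ± 0.22), and Ppargc1a, a coactivator of mitochondrial genes, was lower (-1.76 ± 0.32). Rps19bp1, which encodes the SIRT1 activator AROS, was higher in GMPs than in HSCs by 1.08 ± 0.26, and Ccar2, which encodes the SIRT1 inhibitor DBC1, was lower in CLPs than in HSCs (-0.79 ± 0.22).

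Of 18 genes whose proteins are sirtuin substrates, 2 were higher and 4 lower in CLPs than in HSCs, 8 higher and 2 lower in GMPs than in HSCs, and 9 higher and 2 lower in GMPs than in CLPs, all in O-WT. Bub1b, a mitotic checkpoint kinase, had the largest difference between GMPs and HSCs, 155 against 18.4 CPM (3.07 ± 0.22), and Foxo1 was lower in GMPs than in HSCs (9.35 against 40.5 CPM, -2.12 ± 0.23). Idh2, a mitochondrial substrate of SIRT3, rose from 72.2 CPM in HSCs to 285 in GMPs (1.98 ± 0.24). Glud1, the glutamate dehydrogenase acted on by SIRT4, was higher in GMPs than in CLPs by 1.55 ± 0.24. Foxo3, whose protein is a SIRT1 substrate needed for stem cell upkeep, was highest in HSCs at 179 CPM, with 79.1 in CLPs and 105 in GMPs. The zinc-dependent deacetylases, a separate family that needs no NAD, gave 2 higher and 2 lower of 11 in CLPs against HSCs, 2 and 2 in GMPs against HSCs, and 5 and 3 in GMPs against CLPs. Hdac11 was highest in HSCs, at 28.3 CPM against 9.33 in CLPs and 3.10 in GMPs. Over the 5 lists, 20, 26 and 35 of 53 tested genes were called in the 3 O-WT comparisons, where 26.0%, 38.5% and 56.2% of all genes were. The shares of the lists were the larger in each case, a description with no test. With receptor-gene reads as a covariate, the GMP to CLP counts of the 5 lists, 7, 5, 4, 11 and 8 in the order given, became 3, 3, 0, 8 and 4, and 4590 of all 22573 genes were called.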

How the data were processed

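RNA-seq libraries (33) of sorted cells were analysed from gene counts that the authors deposited, 1 file per library. Per the labels and methods, total RNA libraries (SMARTer) were trimmed with cutadapt, aligned to mm10 with STAR and counted with featureCounts against Gencode. Aligner and counter versions and the strand setting are not given in the sources used here, and the authors' removal of unwanted variation was not repeated. Counts were tested as deposited with edgeR 4.0.16 (R 4.3.3) by quasi-likelihood, TMM scaling and Benjamini-Hochberg adjustment, on genes above 3 CPM in at least 4 libraries (cohort 2), 2 (cohort 1) or 6 (both). Levels over cohort 2 were scaled across 24 libraries, NR fits within 1 cell type, and the cohorts separately. Cell-type calls took an adjusted p below 0.05, and NR calls an unadjusted p below 0.01. Library sizes were all counted reads. They were first recomputed after the filter, and the choice was made after both results were seen. The fits were tested on simulated data. DESeq2 1.42.0, upper quartile scaling, no filter, replicate blocks and leaving out each library were alternatives, and the receptor-gene fits were added after the data were seen.

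The sirtuins and the 5 lists were chosen with earlier results of these data known. Sirtuins are named throughout. Of each list, the genes named are some of those that, in an O-WT comparison, were among the 2 called with the smallest p in a direction. Neighbours were chosen for overlap with a sirtuin, and likeness genes as the 2 highest in r. Intervals are at 95%. The deposited files mark the 3 cell types of each treatment and number in cohort 2 with 1 shared code. Whether this code is a mouse is not stated, but it was taken as a possible pairing. Deviations of these same-numbered libraries had a mean r of -0.03 (-0.48 to 0.37). Where the block changed a cell-type call, its value stands beside the result. Libraries of O-NR and O-WT share only a number.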

Additional observations from a re-analysis of the deposited data

Results flagged for a closer look

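In O-NR CLPs of cohort 2, Sirt5 in replicate 3 was at 10.7 CPM, apart from the other 3 libraries at 14.7 to 14.8 CPM. In O-WT GMPs, Sirt7 in replicate 2 was at 51.4 CPM, apart from the other 3 at 41.2 to 42.4 CPM. Of 49 sets of 4 libraries, 1 for each gene and group, 2 held such a distant library by Dixon's 95% limit, and chance alone gives about 1 in 20. Without that GMP library, the fall of Sirt7 with NR was not called (log2 difference -0.28). The NR effect on Sirt4 in GMPs minus that in HSCs was -0.76 on the log2 scale. The interaction test of edgeR gave it an unadjusted p of 0.0404 (adjusted p = 1.00). Without HSC O-NR replicate 3 the value was -0.58.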

How the results depend on the processing

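Sirt6 was counted by as few as 40 reads, and cohort 1 had 2 O-WT libraries. Of the cell-type calls, those of Sirt2 for CLPs against HSCs in both treatments, Sirt7 for GMPs against CLPs in O-WT and Sirt3 for GMPs against HSCs in O-NR were kept under every alternative and with each library left out. Outside the leave-one-library-out fits, 812 sirtuin values were recomputed and 87 changed sign, 0 of them called in the main analysis, and the largest of these was 0.44 in size. With 1 library left out, 127 of 1225 values changed sign, 0 of them called, and the largest was 0.23. Upper quartile scaling moved the median of all genes by 0.24, -0.21 and -0.46 in the O-WT comparisons of CLPs with HSCs, GMPs with HSCs and GMPs with CLPs, and DESeq2 moved it by 0.22 in both with GMPs. Of 930 recomputed values of named genes of the lists and neighbours, 33 lost a call and 1 reversed (Cps1, GMPs against CLPs in O-WT, 0.17 with the receptor-gene covariate). Of 1455 list counts, 51 moved by over 1.5 times. The causes were not tested.

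The number of sirtuins called for CLPs against HSCs in O-WT was 3 with library sizes recomputed after the filter, 2 with the replicate block and 3 with the libraries of that treatment alone. For GMPs against HSCs in O-WT it was 1 with DESeq2 and 1 with no filter. Upper quartile scaling, recomputed library sizes and O-WT libraries alone each gave 4. In O-NR it was 1 with no filter and 5 with O-NR libraries alone. Upper quartile scaling, recomputed library sizes and the receptor-gene covariate each gave 4. For CLPs against HSCs in O-NR it was 2 with upper quartile scaling, no filter or the receptor-gene covariate. With recomputed library sizes or O-NR libraries alone it was 4. For GMPs against CLPs in O-NR it was 3 with upper quartile scaling, 2 with the receptor-gene covariate (Sirt3 and Sirt4 lower, Sirt7 lost) and 3 with the libraries of that treatment alone. For NR in GMPs it was 0 in 1 fit over 24 libraries. For O-NR-RC against O-WT it was 1 without the 4 libraries high in receptor-gene reads. For the NR effect in cohort 1 minus that in cohort 2 it was 2 with the replicate number as a block (Sirt1 and Sirt3), in a fit that called 3813 of 23413 genes, although these libraries share only a number. Block fits changed no other count of sirtuin calls.

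With 1 library left out, the counts ran from 1 to 2 (CLPs against HSCs), 1 to 3 (GMPs against HSCs) in O-WT, 1 to 5, 1 to 4 and, for GMPs against CLPs, 1 to 3 in O-NR, and 0 to 1 for NR in GMPs. Some of the values that reversed, none of them called in the main analysis, were these, and the others are only counted above. In O-WT, CLPs against HSCs gave 0.031 for Sirt3 with the covariate, and 0.0044 and 0.061 for Sirt4 with upper quartile scaling and the covariate. GMPs against HSCs gave 0.14 and 0.11 for Sirt4 with DESeq2 and no filter (-0.16 to 0.082 with 1 library left out). GMPs against CLPs gave -0.022 and -0.22 for Sirt2 with upper quartile scaling and the covariate, and 0.058 and 0.078 for Sirt3 with DESeq2 and no filter. In O-NR, GMPs against CLPs gave -0.0047 for Sirt2 with the covariate, 0.026 and 0.052 for Sirt3 with DESeq2 and no filter (-0.15 to 0.20), and 0.024 for Sirt4 with no filter (-0.14 to 0.11). O-NR-RC against O-WT gave 0.0033 and 0.52 for Sirt3 with the covariate and without the 4 libraries (-0.79 to 0.088).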
